A study of Homo sapiens with 12 samples.

Results

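The genes described here encode 5 secreted ligands of the BMP and activin branches of the TGF-β superfamily (BMP2, BMP4, BMP7, INHBA and INHBB) and 5 proteins that hold such ligands back (NOG, GREM1, FST, FSTL3 and BAMBI). They were chosen as the rows of the count table with these symbols, and each symbol matched 1 row, so the set is 10 of 57500 gene IDs. The study sequenced ribosome-depleted, DNase-treated total RNA of 3 human cancer cell lines in 4 groups of 3 libraries, labelled as biological replicates. SW480 was established from a primary colorectal tumour and SW620 from a metastasis in that same person, and both grew untreated in DMEM with fetal bovine serum. PEO4 is an ovarian cancer line and grew in RPMI 1640 with the same serum, either without additions (control) or with recombinant human TGF-β at 10 ng/mL for 6 days. Each line is 1 established culture, so a difference between SW480 and SW620 is a difference between those lines. The adjusted p-values below judge a difference between groups against the spread between libraries of a group.

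BMPs bind type I and type II receptor kinases that phosphorylate SMAD1, SMAD5 and SMAD9, whereas activins, which are dimers of the INHBA and INHBB chains, act through SMAD2 and SMAD3, the SMADs that TGF-β itself uses. Noggin and gremlin bind BMPs outside the cell, follistatin and follistatin-like 3 bind activins, and BAMBI is a membrane pseudoreceptor without a kinase domain. In the colon, BMPs are high towards the top of the crypt and their antagonists come largely from the stroma around the crypt base, and activins were first known from ovarian fluid as factors that raise the release of follicle-stimulating hormone.

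The deposited counts of a library added up to 14531420 at the lowest and 22028956 at the highest. Levels are CPM (counts of a gene over the library total in megareads), on totals scaled by TMM over the 12 libraries. A floor of 3 counts corresponded to 0.139 to 0.175 CPM. In the fit with edgeR, adjusted p under 0.05 was reached by 30.5% of the 20941 genes tested between SW620 and SW480, and by 2.26% of the 19064 genes tested in PEO4. CDX2, an intestinal transcription factor, stood at 18.8 ± 2.37 CPM (SD, n = 3) in SW480 and 18.3 ± 4.03 CPM (SD, n = 3) in SW620 and at no more than 3 counts in any PEO4 library. PAX8, a Müllerian lineage factor, stood at 555 ± 19.0 CPM in PEO4 control, 44.4 ± 13.8 in SW480 and 45.7 ± 10.3 in SW620 (SD, n = 3). Over all 6 Müllerian markers the summed level was 5235 to 8584 CPM in PEO4 control, most of it MUC16. It was 108 to 130 CPM in SW480 and 133 to 193 CPM in SW620. WT1 and MSLN were also higher in PEO4 control. SOX17 had a lower mean there (1.59 CPM) than in SW480 (2.57) and SW620 (3.02). FOLR1, at 12.6 CPM in PEO4 control, lay between SW480 (3.44) and SW620 (16.4). Over all 6 intestinal markers the summed level was 35.1 to 57.6 CPM in SW480, 192 to 285 CPM in SW620 and 0.515 to 2.48 CPM in PEO4. VIL1, a microvillus protein, made up most of it, at 26.1 ± 9.99 CPM in SW480, 207 ± 45.1 CPM in SW620 and 1.18 ± 1.04 CPM in PEO4 control (SD, n = 3). VIL1 shares 3045 exon bases (44.0% of its own) with USP37 on the opposite strand. The strand setting of the counting is not given, so reads could be shared. VIL1 and CDH17 were called higher in SW620, so the colorectal lines differ in these markers, and the part of that in the results below was not tested. CDX1 and KRT20 had at most 6 and 24 counts in an SW library and 0 in PEO4. SW620 replicate 3 stood apart from the other SW libraries, because genes seen in PEO4 and almost absent from the other SW libraries had there 1.21% of their PEO4 level (60 genes). The other 5 SW libraries had 0.112% to 0.479% by the same measure. The converse share in the PEO4 libraries, of genes seen in the SW lines, rests on 4 to 7 genes and was 0.357% to 1.32%, with 1.32% in TGF-β replicate 3 and 1.02% in control replicate 3. In SW620 replicate 3 such a share would amount to 37.3 of its 2799 BMP7 counts and 2.61 of its 292 FSTL3 counts. For INHBA it would amount to 3.24 counts, and that library had 0.

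All 10 genes were located on GRCh38 with the GENCODE 29 annotation. BMP2 (ENSG00000125845) lies on chromosome 20 at 6767664 to 6780280 on the plus strand. BMP4 (ENSG00000125378) lies on chromosome 14 at 53949736 to 53958761, minus strand, and BMP7 (ENSG00000101144) on chromosome 20 at 57168748 to 57266629, minus strand. INHBA (ENSG00000122641) lies on chromosome 7 at 41667168 to 41705834, minus strand, and INHBB (ENSG00000163083) on chromosome 2 at 120346143 to 120351808, plus strand. Among the antagonists, NOG (ENSG00000183691) lies on chromosome 17 at 56593699 to 56595590 and GREM1 (ENSG00000166923) on chromosome 15 at 32717974 to 32745107, both on the plus strand. FST (ENSG00000134363) lies on chromosome 5 at 53480409 to 53487134, FSTL3 (ENSG00000070404) on chromosome 19 at 676365 to 683399 and BAMBI (ENSG00000095739) on chromosome 10 at 28677342 to 28682939, each on the plus strand. The antisense genes BMP7-AS1 and INHBA-AS1 overlap only introns of their partners and had at most 34 and 9 counts in a library. A long intergenic RNA that shares 188 exon bases with GREM1 had 0 counts, so no other annotated gene with counts shares exon bases with a member.

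Of the set, INHBB alone was called higher in SW620 than in SW480 and FSTL3 alone was called higher with TGF-β in PEO4, and the sequences before their starts are therefore shown. Both are the 250 bases upstream of the RefSeq start (GRCh38.p14, plus strand), with GGCGCC, a GC-rich motif that SMADs of the BMP branch bind, in capitals. RefSeq promoters were matched for 7 of the 10 genes.
INHBB, chr2:120345886-120346135: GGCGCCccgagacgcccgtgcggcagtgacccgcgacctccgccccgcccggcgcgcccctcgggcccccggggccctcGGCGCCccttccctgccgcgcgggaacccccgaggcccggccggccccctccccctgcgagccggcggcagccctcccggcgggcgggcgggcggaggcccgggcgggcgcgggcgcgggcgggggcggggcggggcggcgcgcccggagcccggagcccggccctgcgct
FSTL3, chr19:676142-676391: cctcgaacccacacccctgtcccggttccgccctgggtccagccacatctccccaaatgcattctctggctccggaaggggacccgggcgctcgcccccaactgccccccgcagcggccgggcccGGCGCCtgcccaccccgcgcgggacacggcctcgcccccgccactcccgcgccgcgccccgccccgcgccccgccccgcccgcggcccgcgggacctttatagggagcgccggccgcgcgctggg
GC bases made up 89.6% of the INHBB window and 80.0% of the FSTL3 window, against a median of 58.0% over all 35116 promoter windows of this length. GGCGCC, which reads the same on both strands, began at -250 and -171 before INHBB and at -125 before FSTL3, counted back from the start. It was present in 16.4% of all windows. GGCGCC also lay in windows of BAMBI, GREM1 and BMP4, none of which was called higher in either comparison. CAGAC or its reverse complement GTCTG, a motif bound by SMAD3 and SMAD4, was in neither of the printed windows and in 38.0% of all windows. These shares over all windows are not matched for GC content, so they are no like background for windows this rich in GC. A match is a description of the letters and shows no binding.

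The leading ligands differed between the ovarian and the colorectal lines (plot of each library). BMP4 and BMP7 led in SW480, INHBB and BMP4 in SW620, and BMP7 stood far above the rest in both PEO4 groups. Per kilobase of annotated exon, the scale on which genes can be set beside each other, SW480 had 114 ± 9.45 CPM per kb of BMP4 and 43.3 ± 8.32 of BMP7 (SD, n = 3). SW620 had 50.9 ± 13.3 CPM per kb of INHBB and 36.6 ± 7.69 of BMP4 (SD, n = 3). That order turned when the longest transcript replaced the exon union, with BMP4 at 58.8 and INHBB at 50.9 CPM per kb. PEO4 control had 38.4 ± 9.56 CPM per kb of BMP7 (SD, n = 3), and the next of the set, BAMBI, had 3.11 ± 0.66. On the longest transcript the next was BMP4 at 4.14, ahead of BAMBI at 3.82. With TGF-β, BMP7 remained first at 14.4 ± 5.20 CPM per kb (SD, n = 3) and FSTL3 was second at 4.68 ± 0.29. The plot of length-scaled levels shows the group means of the 10 genes from 0.00602 CPM per kb (GREM1 in PEO4 with TGF-β) to the 114 of BMP4 in SW480.

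**Figure D1:**
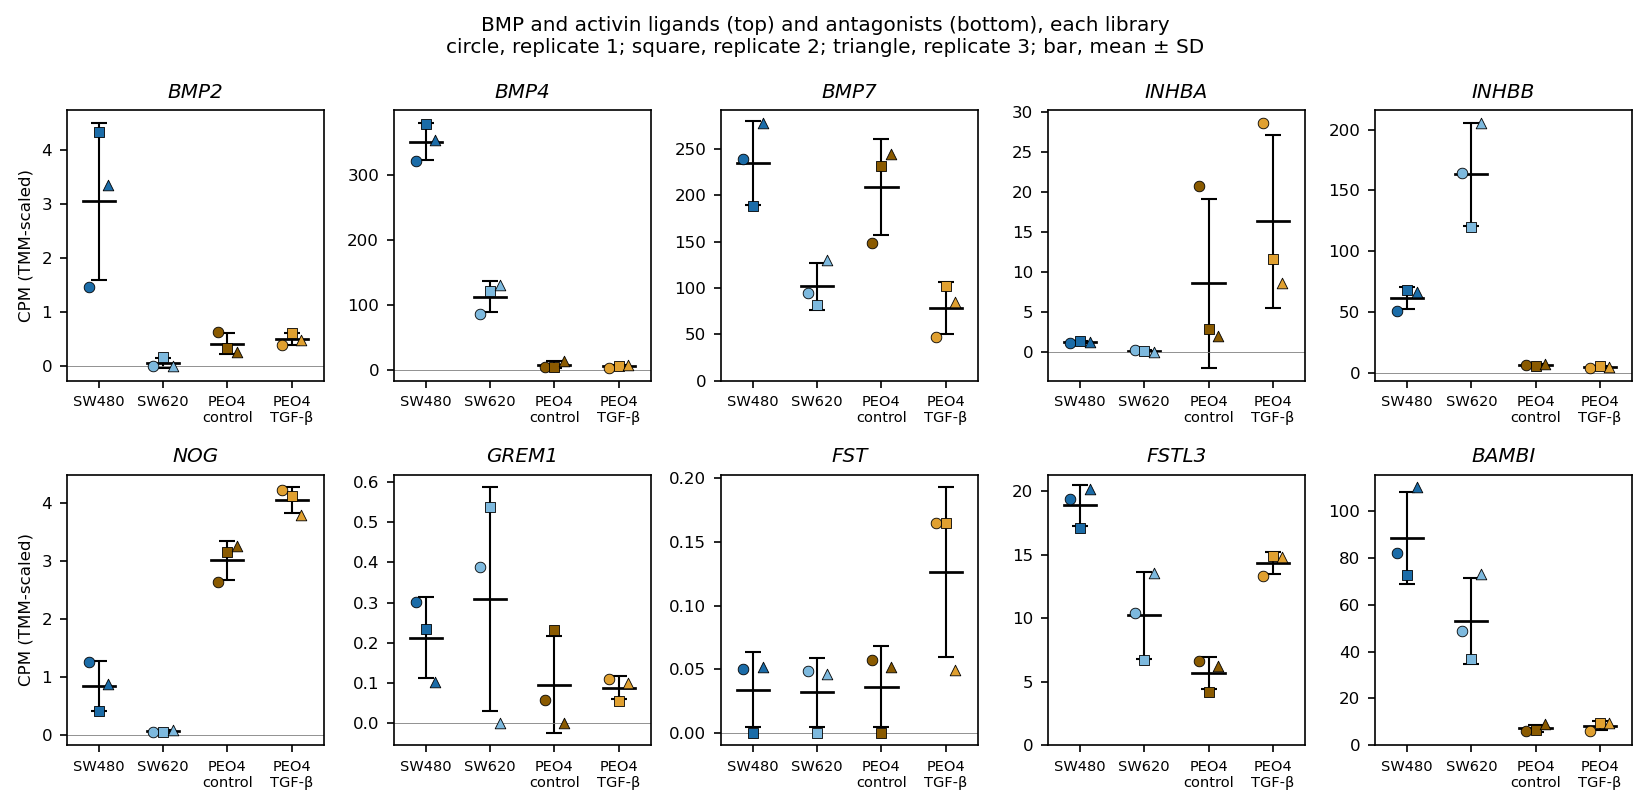
TMM-scaled CPM (linear vertical axes, each gene on its own scale) of the 5 ligands in the upper row and the 5 antagonists in the lower row, in the 4 groups. Circles, squares and triangles are replicates 1, 2 and 3, and bars are the mean ± SD (n = 3). BMP4, BMP2 and NOG lie higher in SW480 than in SW620, and in the INHBA panel the first replicate of each PEO4 group lies far above the others.

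**Figure D2:**
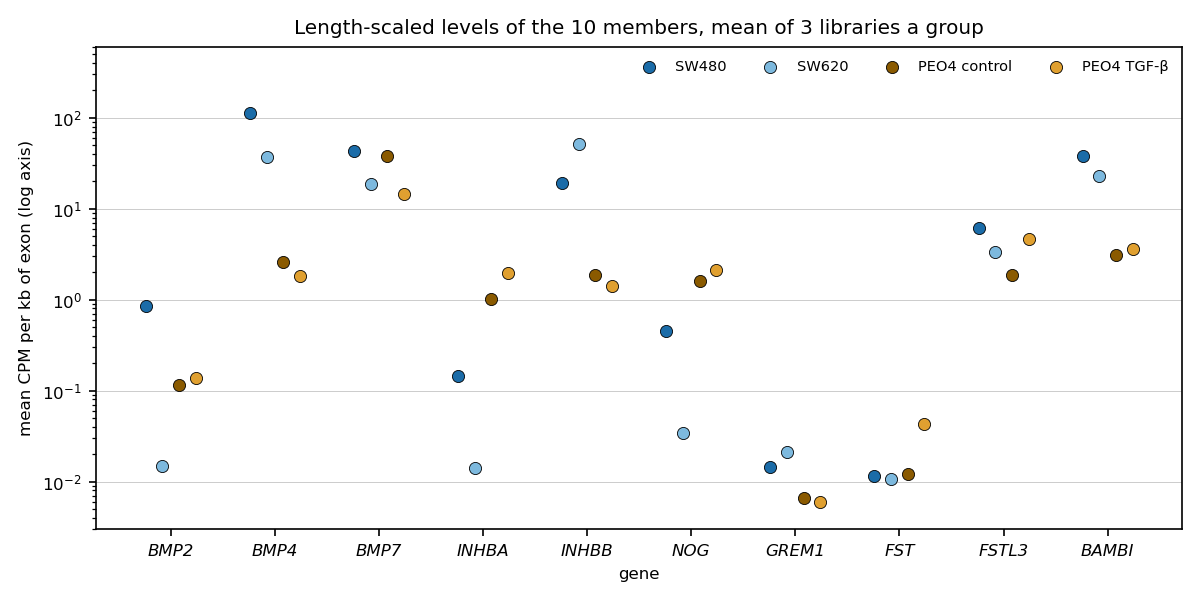
Mean CPM per kb of annotated exon (log axis) of each gene in the 4 groups, each point a mean of 3 libraries. GREM1 and FST lie between 0.00602 and 0.0426 CPM per kb in every group, and BMP4 in SW480 is the highest point at 114 CPM per kb.

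Between the metastatic and the primary colorectal line, 4 of the 5 ligands were lower in SW620 and INHBB was higher. BMP2 and BMP4, a closely related pair of BMP ligands, differed most in proportion (BMP2) and in CPM (BMP4). Of the antagonists that could be tested, FSTL3 was lower and BAMBI did not pass. In total 6 of the 7 genes tested passed edgeR's quasi-likelihood test (1 higher, 5 lower) beside 30.5% of all genes tested, 13.5% higher and 17.0% lower. The libraries of the lines did not overlap for 6 of the 7, beside 43.9% of all genes tested. BMP2 and INHBA passed the filter on low counts only through SW480, where they are high, so the number of calls among the tested genes says little by itself. In these bulk libraries, fewer cells that make a transcript and less of it per cell cannot be told apart.

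BMP4, a ligand made largely by the mesenchyme in normal colon, was at 321, 379 and 354 CPM in the SW480 libraries and at 86.1, 121 and 131 CPM in the SW620 libraries. Every SW480 library lay above every SW620 library. The mean was 3.12-fold higher in SW480 (log2 fold change of SW620 over SW480 -1.62 ± 0.21 SE, edgeR adjusted p = 0.000407). With any 1 library left out, the log2 fold change stayed between -1.75 and -1.42 and the call held.

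BMP7, known for its roles in kidney and bone, was at 239, 188 and 278 CPM in SW480 and at 94.4, 81.2 and 130 CPM in SW620. The highest SW620 library, replicate 3, was below the lowest SW480 library. The mean was 2.31-fold higher in SW480 (log2 fold change -1.19 ± 0.23 SE, edgeR adjusted p = 0.00405). Without SW620 replicate 3 the log2 fold change was -1.41 (adjusted p = 0.00123).

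BMP2, a ligand that promotes differentiation of the colonic epithelium, had 29, 74 and 65 counts in SW480 and 0, 3 and 0 counts in SW620. In CPM this is 3.04 ± 1.46 (SD, n = 3) in SW480, with every SW620 library at or under the floor of 3 counts. The ratio of scaled counts was 60.2, with a 95% exact interval of 20.2 to 295 that covers counting error only. The fitted log2 fold change was -5.73 ± 0.93 SE (edgeR adjusted p = 0.00161), and it was -8.87 without SW620 replicate 2, the 1 library of that line with BMP2 counts.

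INHBA encodes the chain of activin A. It had 22, 22 and 23 counts in SW480 and 5, 2 and 0 in SW620, so both lines held little of it. The ratio of scaled counts was 10.3 (95% exact interval 4.73 to 26.6, counting error only), and the fitted log2 fold change was -3.27 ± 0.77 SE (edgeR adjusted p = 0.0111). The call held with each library left out. The value was most negative without SW620 replicate 1 (-4.33) and least negative when SW620 replicate 3 was dropped (-2.69). When the 12 libraries shared 1 model, the adjusted p was 0.0502.

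INHBB, the chain of activin B, went the other way. It was at 51.0, 67.6 and 66.1 CPM in SW480 and at 164, 120 and 205 CPM in SW620. All SW620 libraries lay above all SW480 libraries, and the mean was 2.65-fold higher in SW620 (log2 fold change 1.42 ± 0.23 SE, edgeR adjusted p = 0.00141). With any 1 library left out, the log2 fold change was between 1.22 and 1.65 and passed the test.

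Among the antagonists, FSTL3, a secreted glycoprotein that binds activins and myostatin, was at 19.4, 17.1 and 20.2 CPM in SW480 and at 10.4, 6.74 and 13.5 CPM in SW620. The groups did not overlap, and the mean was 1.85-fold higher in SW480 (log2 fold change -0.86 ± 0.25 SE, edgeR adjusted p = 0.0279). This call was lost without SW480 replicate 1 (adjusted p = 0.116), SW480 replicate 3 (0.102) or SW620 replicate 1 (0.118). Without SW620 replicate 3 the log2 fold change was -1.13 (adjusted p = 0.00541).

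BAMBI was at 82.1, 72.8 and 111 CPM in SW480 and at 48.8, 36.9 and 73.1 CPM in SW620. SW620 replicate 3 lay just above SW480 replicate 2. The share of PEO4 level described above for that library would amount to 2.02 of its 1575 BAMBI counts. The log2 fold change was -0.72 ± 0.26 SE with a 95% interval of -1.32 to -0.13, and the edgeR adjusted p of 0.0681 missed the threshold. It passed without SW620 replicate 3 (log2 fold change -1.03, adjusted p = 0.00743). In the authors' deposited table, which rests on another test, BAMBI has a log2 fold change of -0.73 and an adjusted p of 0.0381.

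NOG, GREM1 and FST had too few counts to be tested in the colorectal lines. NOG had 25, 7 and 17 counts in SW480 and 1, 1 and 2 in SW620, and the libraries did not overlap. Its ratio of scaled counts was 13.2 (95% exact interval 4.83 to 50.2, counting error only), and every SW620 library stands under the floor of 3 counts. GREM1, which marks stroma at the crypt base in normal colon, had 6, 4 and 2 counts in SW480 and 8, 10 and 0 in SW620. FST, the activin-binding follistatin, had at most 1 count in each SW library. Of 6 fibroblast markers, COL1A2 and DCN had at most 13 and 18 counts in an SW library and FAP had 0. PDGFRB was at 1.78 ± 0.25 CPM in SW480 and 2.47 ± 0.60 in SW620, THY1 at 0.61 ± 0.26 and 1.64 ± 1.34, and LUM at 0.27 ± 0.08 and 7.06 ± 3.18 (SD, n = 3). The summed level of the 6 was 3.17 to 3.45 CPM in SW480 and 8.57 to 17.4 CPM in SW620.

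**Figure D3:**
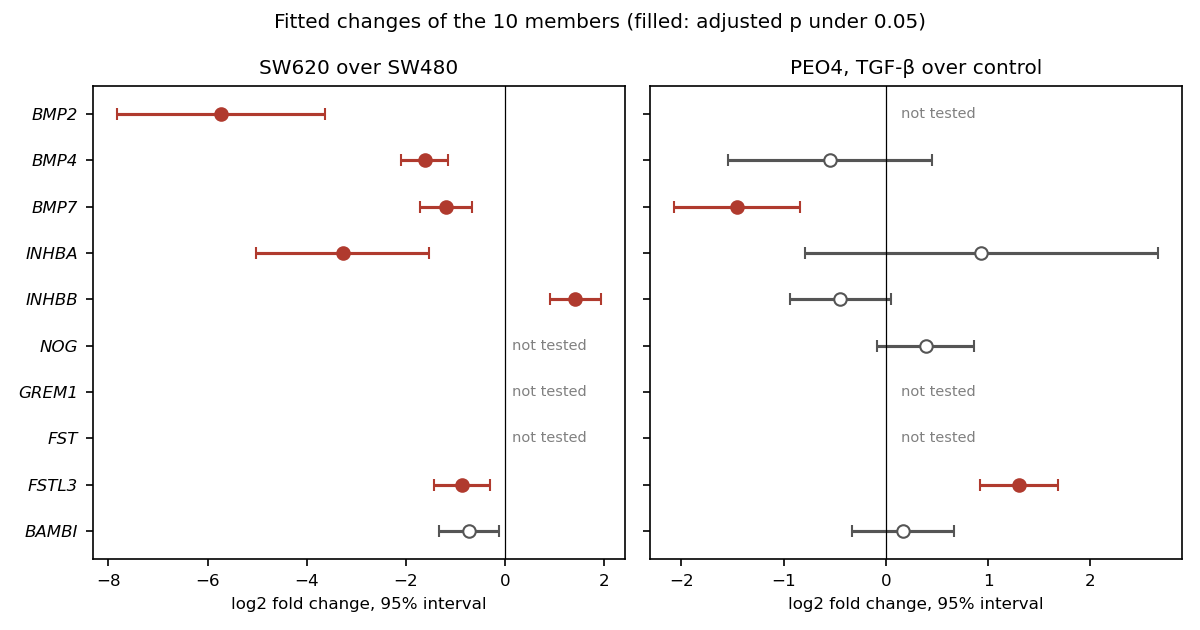
Log2 fold change with its 95% interval (horizontal axis) of each gene, SW620 over SW480 on the left and PEO4 with TGF-β over control on the right, from edgeR fits on 6 libraries each. Filled points have an adjusted p under 0.05, and genes with too few counts are marked as not tested. In the left panel 5 filled points lie below 0 and INHBB lies above it, and in the right panel only BMP7 and FSTL3 are filled.

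In PEO4, BMP7 fell and FSTL3 rose with TGF-β, and no other gene of the set passed. That is 2 of the 7 genes tested, beside 2.26% of all genes tested (1.27% higher, 0.991% lower). The libraries of the groups did not overlap for BMP7, FSTL3 and NOG, 3 of the 7, beside 20.0% of all genes tested. BMP2, GREM1 and FST had too few counts for a test. Of the genes often raised by TGF-β and used here to check the treatment, LTBP2, PMEPA1, TGFBI and COL7A1 rose, by 2.74, 2.32, 2.33 and 3.46 on the log2 scale. SKIL (log2 fold change 1.08, adjusted p = 0.0546) and SMAD7 (0.32, adjusted p = 0.432) did not pass. PMEPA1 shares exon bases with the antisense gene NKILA, and its call was lost without control replicate 2 (adjusted p = 0.122), TGF-β replicate 1 (0.0716) or TGF-β replicate 2 (0.0682).

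BMP7 was the most abundant BMP of the set in PEO4, at 149, 232 and 244 CPM in the control libraries and 47.1, 102 and 85.0 CPM in the TGF-β libraries. All treated libraries lay below all control libraries. The mean was 2.67-fold higher in the control (log2 fold change -1.46 ± 0.27 SE, 95% interval -2.07 to -0.84, edgeR adjusted p = 0.0301). The authors' deposited table gives the same log2 fold change of -1.46, with an adjusted p of 0.00575. The fall kept its size with 1 library left out, between -1.66 and -1.20, but its adjusted p passed only without control replicate 1 (0.00686). It was 0.156 and 0.0712 without control replicates 2 and 3, and 0.0602, 0.0613 and 0.0717 without TGF-β replicates 1, 2 and 3. Sums of the Müllerian markers were also lower with TGF-β, at 2917 to 4702 CPM against 5235 to 8584 CPM in the control, and their part in the BMP7 result was not tested. MUC16 carried most of that sum, at 5660 ± 1735 and 2406 ± 971 CPM (SD, n = 3), and did not pass (adjusted p = 0.0701). MSLN and WT1 passed as lower, and PAX8 was at 555 ± 19.0 and 578 ± 54.1 CPM.

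FSTL3 was at 6.59, 4.21 and 6.26 CPM in the control libraries and at 13.3, 14.9 and 14.8 CPM with TGF-β. The treated libraries sat close together and well above the control. The mean was 2.52-fold higher with TGF-β (log2 fold change 1.31 ± 0.17 SE, 95% interval 0.92 to 1.69, edgeR adjusted p = 0.00719). It passed with any 1 library left out, with log2 fold changes from 1.15 to 1.42 and adjusted p from 0.00439 to 0.0442. The level with TGF-β, 14.3 ± 0.89 CPM (SD, n = 3), lay between those of SW480 (18.9 ± 1.61) and SW620 (10.2 ± 3.41).

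INHBA varied most in proportion to its mean between control PEO4 libraries among the members of the set tested there. It was at 20.8, 2.88 and 1.91 CPM in the control and at 28.7, 11.6 and 8.64 CPM with TGF-β, so that control replicate 1 lay above 2 of the 3 treated libraries. The log2 fold change was 0.93 ± 0.77 SE with a 95% interval of -0.80 to 2.66 (edgeR adjusted p = 0.596), an interval wide enough to hold both no change and a rise of over 2 on the log2 scale. Without control replicate 1 the log2 fold change was 2.73 (adjusted p = 0.0216). The same library was also the highest of its group for PMEPA1, an inhibitor of SMAD signalling, with 187 CPM against 67.6 and 57.4. LTBP2, a matrix protein related to latent TGF-β binding proteins, stood there at 49.0 CPM against 25.4 and 24.0. SKIL, a SMAD corepressor, stood there at 388 CPM against 264 and 170. TGFBI stood there at 4.92 CPM against 3.00 and 3.93. SMAD7 (43.9 CPM against 56.5 and 34.4) and COL7A1 (1.55 CPM against 1.15 and 2.28) lay there between the other control libraries. Control replicate 1 was the lowest of the control for BMP7. Among the treated libraries, too, replicate 1 was the highest for INHBA and PMEPA1 (619 CPM against 492 and 465) and the lowest for BMP7. It was also the highest for LTBP2 (238 CPM against 214 and 218) and COL7A1 (19.2 CPM against 18.5 and 18.8). For SKIL (607 CPM against 650 and 512), SMAD7 (54.7 against 68.4 and 49.3) and TGFBI (17.3 against 16.3 and 27.1) it lay between the other treated libraries. The part of these differences between libraries in the INHBA and BMP7 results was not tested.

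**Figure D4:**
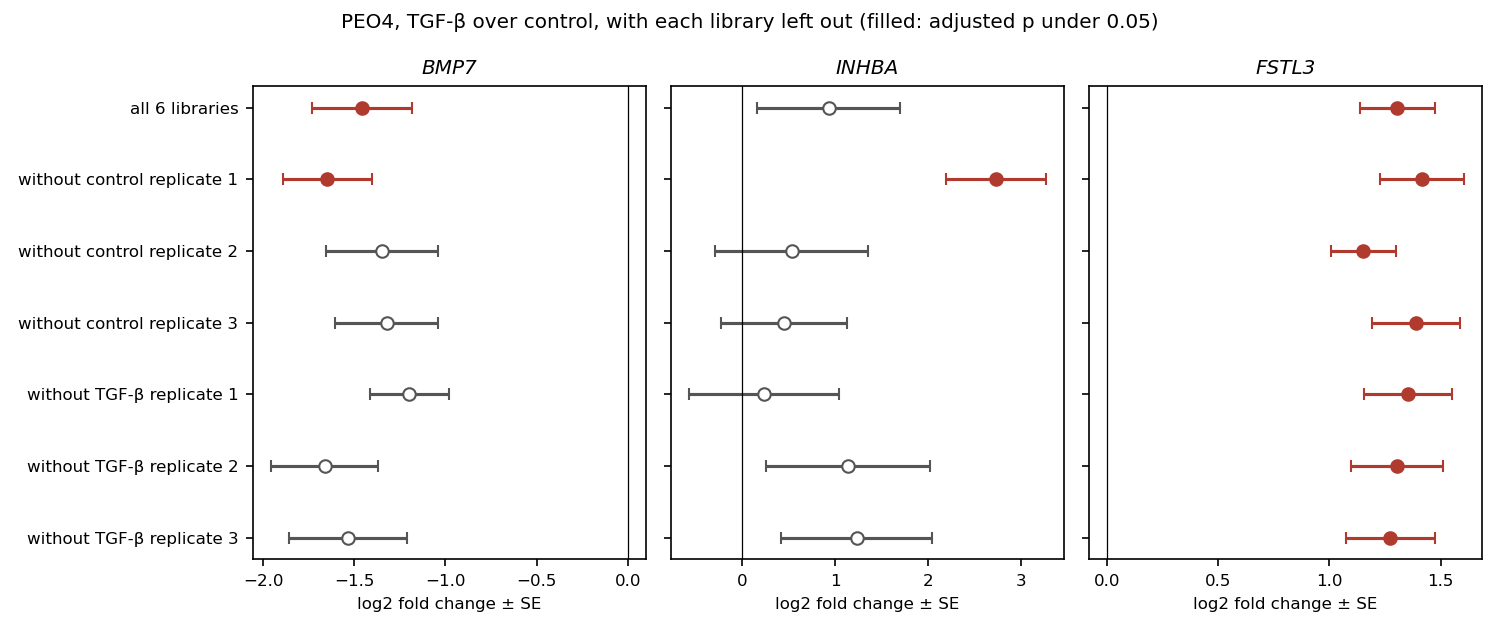
Log2 fold change ± SE (horizontal axis) of PEO4 with TGF-β over control for BMP7, INHBA and FSTL3, from all 6 libraries and with each library left out in turn. Filled points have an adjusted p under 0.05. FSTL3 is filled in every row, BMP7 in 2 rows, and INHBA moves from 0.93 to 2.73 without control replicate 1.

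The remaining members did not pass in PEO4. BMP4 was at 5.04, 4.67 and 14.1 CPM in the control and at 3.25, 5.89 and 7.50 CPM with TGF-β (log2 fold change -0.55, 95% interval -1.55 to 0.45, edgeR adjusted p = 0.589). Without control replicate 3 the value was 0.17 (adjusted p = 0.838). How much of these low BMP4 levels the share of SW level described above could make up was not tested. INHBB was at 6.02 ± 1.01 CPM (SD, n = 3) in the control and 4.53 ± 1.11 CPM with TGF-β, with overlapping libraries (95% interval of the log2 fold change -0.94 to 0.05). BAMBI, itself known as a gene that TGF-β and BMP signals can raise, was at 6.13, 6.51 and 8.95 CPM in the control and at 6.05, 9.36 and 9.47 CPM with TGF-β. Its 95% interval, -0.33 to 0.67 on the log2 scale, leaves out a 2-fold change in either direction. NOG was at 2.63, 3.17 and 3.26 CPM in the control and at 4.24, 4.13 and 3.80 CPM with TGF-β. Each treated NOG library lay above each control library, yet the log2 fold change of 0.39 ± 0.21 SE did not pass (95% interval -0.08 to 0.86, edgeR adjusted p = 0.397).

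BMP2 was at 0.63, 0.35 and 0.26 CPM in the control libraries and 0.39, 0.61 and 0.49 CPM with TGF-β, which overlap. GREM1 had 1, 4 and 0 counts in the control and 2, 1 and 2 with TGF-β, and FST had 1, 0 and 1 and then 3, 3 and 1. The ratio of scaled counts, control over TGF-β, was 1.05 for GREM1 (95% exact interval 0.241 to 4.54) and 0.299 for FST (0.0303 to 1.57), counting error only. Both intervals hold 1, so no difference was detected, and one within them could not be seen at this depth.

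Set in order over the 4 groups, the genes fell into different patterns, described here without a test because the ovarian and colorectal lines grew in different media. BMP4 ran from SW480 (351 ± 29.1 CPM, SD, n = 3) through SW620 (113 ± 23.7) to both PEO4 groups, which overlapped and did not pass 14.1 CPM. BAMBI had the same split between lines, with 88.5 ± 19.6 CPM in SW480, 52.9 ± 18.4 in SW620 and no PEO4 library above 9.47 CPM. INHBB ran from SW620 through SW480 to the overlapping PEO4 groups. BMP7 did not separate the ovarian line from the colorectal lines, since SW480 overlapped with PEO4 control. Below them, SW620 overlapped with the treated PEO4 libraries. NOG and INHBA had their highest mean in PEO4 with TGF-β and their lowest in SW620, an order that FST shared at no more than 3 counts in a library. For INHBA the PEO4 groups overlapped, and for NOG each of the 4 groups stood clear of the next.

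For 6 genes with a group mean of at least 5 CPM, the gene with the most similar profile over the 12 libraries was sought among 13405 genes, by the root mean square difference of centred log2 CPM. BAMBI was closest to CYB5B, an outer mitochondrial membrane cytochrome b5, at 0.26. INHBB was closest to RAPGEF4, an exchange factor activated by cAMP, at 0.28, and RAPGEF4 stood at 18.9 CPM in SW480, 41.2 in SW620, 1.71 in PEO4 control and 1.33 with TGF-β. FSTL3 was closest to MMP15, a membrane-bound matrix metalloproteinase, at 0.29, and MMP15 stood at 15.7, 11.1, 6.65 and 15.1 CPM in the same groups. BMP4 was closest to FOXL1, a forkhead factor, at 0.34, and BMP7 to EVA1C at 0.36. FOXL1 stood at 5.83, 2.00, 0.0517 and 0.0183 CPM in the same groups. Its PEO4 means thus lay under the floor, where the prior count added before the log narrows differences. The best match of INHBA, TLL2, a protease that can cleave chordin-type antagonists, was much less close at 0.79. All 12 libraries enter each distance, so the differences between lines weigh most in it.

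The rest of the pathway was read from lists, and genes named to complete a count of 5 or fewer were picked after their values were seen (AMH, TWSG1, BMPR1A, BMPR2, ACVR1B, and ID2 and ATOH8 in the SW lines and ID1 in PEO4). Of 25 other BMP, GDF and activin ligands, 12 were tested between the colorectal lines. Of these, 3 were higher in SW620 and 2 lower, beside 13.5% higher and 17.0% lower of all genes tested. Their median log2 fold change was 0.05, beside 0.03 over all genes tested. BMP5, a BMP of the same subgroup as BMP7, had a mean of 2.75 ± 1.80 CPM in SW480 against 10.1 ± 1.93 in SW620 (SD, n = 3, log2 fold change 1.90, edgeR adjusted p = 0.0106). INHBE, an activin chain made mainly in liver, was at 11.4 ± 3.67 and 42.0 ± 25.9 CPM (log2 fold change 1.89, adjusted p = 0.0195), although its libraries overlapped. AMH, the anti-Müllerian hormone, was higher too (log2 fold change 0.76). BMP8B was lower in SW620, at 28.5 ± 1.74 against 9.0 ± 1.25 CPM (log2 fold change -1.64, adjusted p = 0.000144), but reads could be shared with its close copy BMP8A and with PPIE, whose exons it overlaps. BMP6 was lower as well (log2 fold change -1.20, adjusted p = 0.0423). The BMP6 call held in 1 of 6 fits with a library left out, that of INHBE in 3 of 6 and that of AMH in 4 of 6.

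Of 10 other secreted antagonists and modulators tested, 5 were lower and 0 higher in SW620 by edgeR, beside 17.0% lower and 13.5% higher of all genes tested, with a median log2 fold change of -0.88. CHRD and TLL2, at no more than 8 and 4 counts in an SW620 library, passed the filter on low counts only through SW480. At an unadjusted p under 0.05, 1 was higher, and DESeq2 and limma-voom each called 6 of the list. CRIM1, a membrane protein that tethers BMPs, averaged 163 ± 47.6 CPM in SW480 against 6.19 ± 1.59 in SW620 (SD, n = 3, log2 fold change -4.70, edgeR adjusted p = 9.80e-06). CHRD, the BMP antagonist chordin, averaged 4.83 ± 1.09 CPM in SW480 and lay between 0.15 and 0.37 CPM in the SW620 libraries (log2 fold change -4.34, adjusted p = 0.000157). Next to these stood TLL2, a protease (log2 fold change -3.36), KCP, a kielin/chordin-like protein (-2.21), and TWSG1, which binds chordin and BMPs (-1.44). All 5 calls held in 6 of 6 fits with a library left out. KCP shares exon bases with ATP6V1F and CHRD with THPO, and the strand setting of the counting is not given in the sources used here.

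Of 13 receptors and co-receptors tested, 4 were higher and 3 lower in SW620, with a median of 0.12. Over all genes tested, 13.5% were higher and 17.0% lower. TDGF1, the NODAL co-receptor cripto, was at 4.22 ± 0.96 and 32.8 ± 8.75 CPM (SD, n = 3, log2 fold change 2.97, edgeR adjusted p = 4.37e-05), with close copies elsewhere in the genome that could share its reads. RGMA, a BMP co-receptor (log2 fold change 1.75), TGFBR3, the betaglycan that binds TGF-β and inhibins (1.59), and BMPR1A, a type I BMP receptor (0.90), were higher too. ACVR1, a type I receptor for BMPs and activins, was lower, at 29.8 ± 2.28 against 10.0 ± 2.72 CPM (log2 fold change -1.55, adjusted p = 0.000633). BMPR2, the type II BMP receptor, had a log2 fold change of -1.20. ACVR1B, the type I receptor of activins, had -0.59, and its call held in 2 of 6 fits with a library left out.

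Among the 8 SMADs, 2 were higher and 2 lower in SW620 (median 0.05), beside 13.5% higher and 17.0% lower of all genes tested. SMAD4 did not pass, at 3.25 ± 0.11 CPM in SW480 and 3.33 ± 1.35 in SW620 (SD, n = 3). In PEO4 it stood at 103 ± 2.24 CPM in the control and 97.6 ± 4.93 with TGF-β. The part of this low SMAD4 level in the other results of the SW lines was not tested. The BMP-induced inhibitor SMAD6 averaged 6.58 ± 0.87 CPM in SW480 against 53.5 ± 5.29 in SW620 (SD, n = 3, log2 fold change 3.05, edgeR adjusted p = 6.65e-06), and the inhibitor SMAD7 at 31.5 ± 6.04 and 9.40 ± 1.52 CPM (log2 fold change -1.72, adjusted p = 0.000272). SMAD5, a BMP-branch SMAD, was lower (log2 fold change -1.48), and SMAD3, of the activin and TGF-β branch, was higher (0.64), a call that was lost when any 1 SW480 library was left out (adjusted p 0.0545 to 0.0706). Of 11 BMP response genes tested, 3 were higher and 3 lower (median -0.01), beside the same 13.5% and 17.0% of all genes tested. ID1, an inhibitor of bHLH factors that BMPs induce, averaged 4.80 ± 2.12 CPM in SW480 against 34.4 ± 22.7 in SW620 (SD, n = 3, log2 fold change 2.86), while its relative ID2 had a log2 fold change of -2.82. MSX1 and RUNX2, transcription factors of limb and bone, were lower in SW620, RUNX2 with 208 ± 29.4 against 5.39 ± 0.99 CPM (log2 fold change -5.25) and MSX1 with a log2 fold change of -3.32. SMAD6, which is also a response gene, and ATOH8 (log2 fold change 1.47) completed those that were higher. The ATOH8 call was lost without SW480 replicate 1 (adjusted p = 0.0528).

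In PEO4, 0 of 10 other ligands and 0 of 11 other secreted antagonists and modulators passed edgeR's test at an adjusted p under 0.05. Of 12 receptors and co-receptors, 0 passed. At an unadjusted p under 0.05 the counts were 1, 4 and 3, DESeq2 called 0, 2 and 0 of these lists, and limma-voom called 0 of each. The medians of these lists were 0.04, 0.07 and 0.02 on the log2 scale beside -0.02 over all genes tested. The genes of the lists that passed were SMAD6, SMAD9, ID1, ID2 and ATOH8, and all 5 fell. ATOH8, a bHLH factor induced by BMPs, fell from 24.2 ± 6.05 to 3.18 ± 0.96 CPM (SD, n = 3, log2 fold change -2.97, edgeR adjusted p = 0.00145). SMAD9 fell from 7.40 ± 1.40 to 2.44 ± 0.36 CPM (log2 fold change -1.64, adjusted p = 0.00965) and SMAD6 from 82.4 ± 15.2 to 37.8 ± 5.59 CPM (log2 fold change -1.16, adjusted p = 0.00881). ID2 fell from 225 ± 48.6 to 82.2 ± 24.8 CPM (log2 fold change -1.50, adjusted p = 0.0120) and ID1 from 108 ± 8.78 to 61.1 ± 16.5 CPM (log2 fold change -0.86, adjusted p = 0.0421). These are 5 of the 11 BMP response genes tested, beside 2.26% of all genes tested (0.991% lower). The median log2 fold change was -0.92 over the 11 and -0.02 over all genes. SMAD6 and SMAD9 stand in the SMAD list as well. The list was chosen with earlier results of these data known, so these shares describe it and are no independent test. By DESeq2 7 of the list passed and by limma-voom 6, and at an unadjusted p under 0.05 edgeR gave 8 lower and 0 higher. The ATOH8 call held with each of the 6 libraries left out. SMAD6 (adjusted p = 0.0612) and SMAD9 (0.0622) lost theirs without control replicate 2, ID2 without that library (0.0580) or TGF-β replicate 1 (0.0611), and ID1 in 4 of 6 fits (highest adjusted p 0.208). BMP7, the ligand that fell, and these genes come from the same 6 libraries, and whether their changes are linked was not tested.

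**Figure D5:**
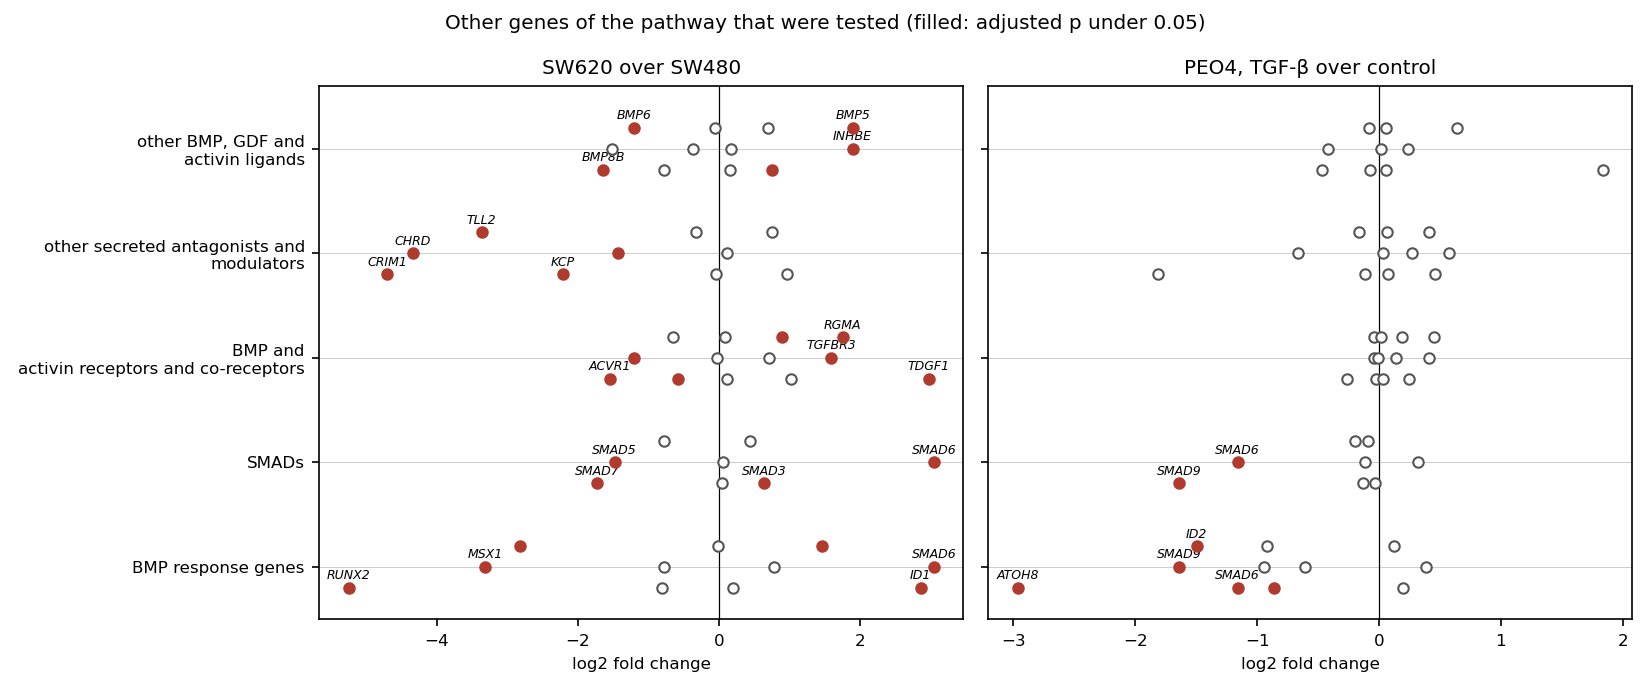
Log2 fold change (horizontal axis) of each tested gene in 5 lists of the pathway, SW620 over SW480 on the left and PEO4 with TGF-β over control on the right, with SMAD6 and SMAD9 shown in both of their lists. Filled points have an adjusted p under 0.05 and at most 4 of them per list are named. The left panel has filled points on both sides of 0 in every list but the secreted antagonists and modulators. In the right panel every filled point lies below 0.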

How the data were processed

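Total RNA of 12 libraries was counted per gene by the authors. Per the submitters' processing notes the tools were Trimmomatic 0.36, STAR 2.5.2b, featureCounts, Subread 1.5.2 and DESeq2, with GRCh38. The annotation and strand setting are not given in the sources used here. Counts were deposited as whole numbers. The authors' deposited comparison tables add a signal (each count over a size factor of its library, checked on the values) and, per the file headers, a log2 fold change with raw and adjusted p-value. The signal was not used further.

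The tests started from the counts, with R 4.3.3 and edgeR 4.0.16 (filterByExpr, TMM, quasi-likelihood test, two-sided, Benjamini-Hochberg over all genes tested, threshold 0.05). The 6 libraries of a comparison were fitted without the other 6. The SE is the log2 fold change over the root of F. Ratios of low counts carry exact 95% intervals. Positions come from GENCODE 29, which held 56898 of 57500 IDs, and promoters from RefSeq. The scripts were tested on simulated data. Alternatives used DESeq2 1.42.0, limma 3.58.1, other scalings, filters and models, a GC correction and left-out libraries.

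The members, lists and tests were chosen with earlier results of these data known. Named were all members and, from each list and comparison, up to 4 genes with the largest absolute log2 fold change among those past the threshold with at least 1 CPM in the higher group, plus the treatment check, of which 1 gene is not reported here. Carry-over was to be read from genes at 100 CPM or more in every library of the other line set and at most 0.2 CPM in the other libraries of its own. That found 0 genes, so the limits were loosened to 20 and 0.5 CPM after values were seen. Of the 13 lists, the endothelial and leukocyte markers summed to at most 14.0 and 15.4 CPM in a library. The fibroblast markers summed to at most 17.4 CPM in the SW lines and 382 CPM in PEO4. THY1 made up most of that PEO4 sum, with means of 283 CPM in the control and 327 CPM with TGF-β. Every other fibroblast marker had a PEO4 group mean of 1.17 CPM (PDGFRB with TGF-β) or less. The colorectal markers summed to 35.1 to 285 CPM in the SW lines.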

Additional observations from a re-analysis of the deposited data

How the results depend on the processing

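For the members tested in each comparison, the sign held over 17 alternatives (16 for BMP2 and INHBA between SW620 and SW480), except for BMP4 in PEO4, whose log2 fold change was 0.17 without control replicate 3 and ranged from -0.85 to 0.17 with 1 library left out. The cause was not tested. Between SW620 and SW480 a test against a 2-fold change (glmTreat) called 3 members, 2504 genes and 16 genes of the pathway lists, against 6, 6385 and 26 in the main test. The replicate block called 10667 genes, and the GC correction with that block 11291 (6302 higher, 4989 lower, against 2835 and 3550 in the main test). With 1 library left out the counts ran from 5 to 8 members, NOG counted where it passed the filter through SW480, from 4253 genes (without SW480 replicate 1) to 7419, and from 20 to 27 list genes. The GC correction moved the median over all genes from 0.03 to 0.14 and ended the call of FSTL3 there. BAMBI passed under 8 of its 17 alternatives. In PEO4, DESeq2 called 967 genes and 9 list genes, no filter on low counts 1457 and 11, the replicate block 2102 and 12, the GC correction with that block 1807 and 14, and glmTreat 0 members, 9 genes and 1 list gene, against 2, 431 and 5 in the main test. All 12 libraries in 1 model called 165 genes. With 1 library left out the PEO4 counts ran from 1 to 3 members, from 1 to 7 list genes, and from 72 genes (without control replicate 2) to 1080 (without control replicate 1). They were 233 without control replicate 3 and 128, 130 and 223 without TGF-β replicates 1, 2 and 3. Libraries with the same replicate number share only that number. Their deviations correlated at 0.02, 0.67 and 0.57 in the SW lines and at 0.29, -0.14 and 0.48 in PEO4, and not every library correlated best with its own number. With the replicate block INHBA passed in PEO4 (log2 fold change 1.28, adjusted p = 0.00439) and BAMBI between SW620 and SW480 (adjusted p = 4.55e-05). Depth limits BMP2, INHBA and NOG in SW620, and GREM1 and FST in every library.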
